A study of Rattus norvegicus with 4 samples.

Results

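The genes described here encode the working parts of the lysosome: its proteases and other hydrolases, its main membrane proteins, and the vacuolar proton pump that acidifies it. They were the rows of the deposited rat liver count table whose symbol starts with Atp6v0 or Atp6v1, together with 29 named lysosomal genes. The rule found 51 genes of the 32545 in the table, of which 22 were pump subunits and 29 the named genes. RNA from rat liver was sequenced in 4 libraries. In 2 libraries, sleep restriction 1 and 2, the animals underwent sleep restriction on top of forced activity, and in the other 2, forced activity 1 and 2, they underwent forced activity only, so enforced movement was common to all. Strain, sex, age and the length of the protocol are not given in the labels. Nothing in the labels says that libraries came from separate animals, so p-values measure only the spread between these libraries, which may be technical.

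The lysosome is the acidic compartment in which cells break down proteins, glycans, lipids and worn-out organelles delivered by endocytosis and autophagy. Most of its soluble enzymes are made in the endoplasmic reticulum, tagged with mannose 6-phosphate and sorted to the lysosome, while the vacuolar proton pump uses ATP in its cytosolic V1 sector to drive protons through its membrane V0 sector. Many lysosomal genes, studied best in human cells, carry copies of a short palindrome around CACGTG in their promoters, known as the CLEAR element, to which TFEB and related transcription factors bind. In liver, hepatocytes and Kupffer cells are both rich in lysosomes.

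The letters TCACGTGA, the core of that element, were searched on both strands in promoter sequences from RefSeq (build GRCr8), each covering 250 bases before and 50 bases after the gene start used there. A sequence was found for 41 of the 51 genes. There was none for Asah1, Atp6v0d2, Atp6v0e2, Atp6v1b2, Atp6v1c1, Atp6v1h, Ctsb, Hexa, Ppt1 and Psap. TCACGTGA was in the promoters of 4 of the 41 genes (9.76%), Lamp1, Ctsd, Atp6v0d1 and Atp6v0e1, against 0.777% of all 33469 promoters. The shorter TCACGTG, whose matches include every TCACGTGA, was also in Gaa and Glb1, which made 6 of 41 (14.6%) against 3.20%. The hexamer CACGTG, which all these matches hold, was also in Cd63, which made 7 of 41 (17.1%) against 6.42%. A match describes letters in the window and not a bound site, and no match says only that these letters are not there.

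The 3 promoters with TCACGTGA before the gene start are shown whole, because they carry the shared element in a membrane protein, a protease and a pump subunit. Capitals mark every CACGTG, and each runs 5′ to 3′ on its gene's strand up to the last base before the start.
Lamp1 (chr16:83075064-83075313, minus strand): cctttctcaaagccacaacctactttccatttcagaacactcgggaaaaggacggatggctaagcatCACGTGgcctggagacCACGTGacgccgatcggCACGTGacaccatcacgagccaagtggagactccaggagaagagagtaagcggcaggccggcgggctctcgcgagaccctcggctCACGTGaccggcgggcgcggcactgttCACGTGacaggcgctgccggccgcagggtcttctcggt
Ctsd (chr1:206968822-206969071, minus strand): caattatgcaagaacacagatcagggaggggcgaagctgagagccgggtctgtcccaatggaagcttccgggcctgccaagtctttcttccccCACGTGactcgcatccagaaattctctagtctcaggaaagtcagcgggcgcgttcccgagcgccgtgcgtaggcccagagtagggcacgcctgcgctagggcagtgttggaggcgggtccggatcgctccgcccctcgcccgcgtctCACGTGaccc
Atp6v0d1 (chr19:50357249-50357498, minus strand): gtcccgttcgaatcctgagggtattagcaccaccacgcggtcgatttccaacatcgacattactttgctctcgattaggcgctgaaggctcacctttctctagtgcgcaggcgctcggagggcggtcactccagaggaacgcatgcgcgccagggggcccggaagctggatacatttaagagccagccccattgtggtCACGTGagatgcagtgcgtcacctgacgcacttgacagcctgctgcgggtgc
The Lamp1 window held 5 copies of CACGTG, of which 2 lay within TCACGTGA and began 66 and 39 bases before the start. The Ctsd window held 2, with TCACGTGA beginning 11 bases before the start. The single copy in Atp6v0d1 lay 53 bases before the start, counted from the first base of TCACGTGA.

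The genes with the shorter match are shown as windows around it, with the same marking.
Gaa (chr10:105028261-105028321, plus strand): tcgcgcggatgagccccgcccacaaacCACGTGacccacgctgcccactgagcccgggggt
Glb1 (chr8:122963590-122963650, plus strand): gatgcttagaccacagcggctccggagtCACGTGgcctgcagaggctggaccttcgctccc
Cd63 (chr7:1921927-1921986, plus strand): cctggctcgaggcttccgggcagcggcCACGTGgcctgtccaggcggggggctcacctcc
CACGTG began 67 bases before the start in Gaa, 100 in Glb1 and 190 in Cd63. The Atp6v0e1 match lay after the start and is not shown.

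The tabulated counts summed to 515682.4 and 520275.6 in sleep restriction 1 and 2, and to 508202.6 and 520204.5 in forced activity 1 and 2. Genes above 0 numbered 14105 and 10952 in sleep restriction 1 and 2 and 14008 and 11943 in forced activity 1 and 2. How deep each library was before deposit is not known here. Nearly all values of sleep restriction 2 were whole numbers, unlike those of the other 3 libraries. The 8 hepatocyte markers, among them albumin, summed to between 206110 and 217697 counts per 1e6 counts (CPM) in every library, as a liver sample would. Normalised read counts in CPM are scaled by TMM factors, which equalise the bulk of genes between libraries. At these depths 41 of the 51 lysosomal genes passed the filter on low counts, with mean counts from 10.025 for Neu1 to 338 for Ctsl.

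None of the 41 tested lysosomal genes passed the test between sleep restriction and forced activity. In edgeR's quasi-likelihood test 0 were called higher and 0 lower at an adjusted p under 0.05, where 0.0201% of all 4986 genes tested were called, 1 gene lower (0.0201%) and 0 higher (0%). Without adjustment 0 of the 41 were under 0.05, against 4.21% of all genes tested, and DESeq2 and limma-voom also called 0. The adjusted p of every tested member was at least 0.999. The median log2 change was -0.01 over the members and 0.00 over all genes tested, and 19 members were positive and 22 negative. In bulk liver RNA, fewer cells of a type and less RNA per cell cannot be told apart.

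**Figure D1:**
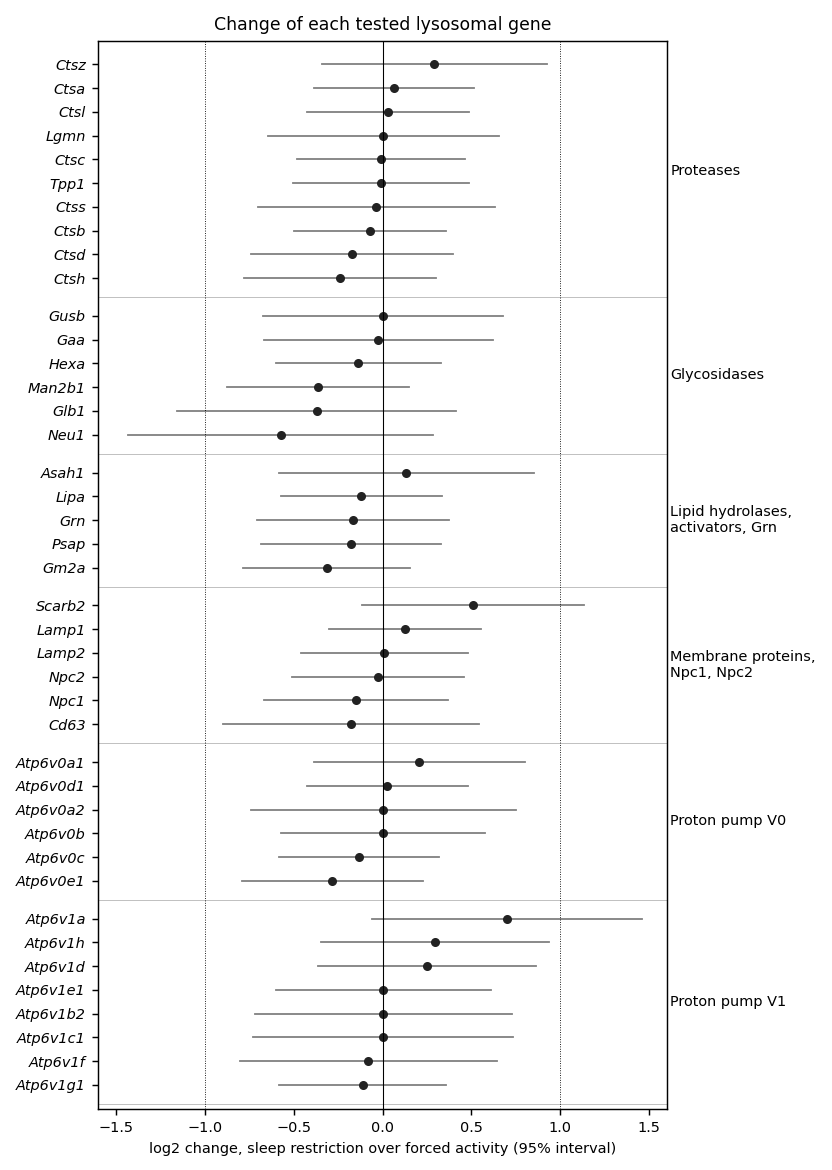
Each dot is the log2 change of a tested lysosomal gene, sleep restriction over forced activity, and each bar its 95% interval from edgeR, by role. Every bar crosses 0, and the bars of Atp6v1a, Scarb2, Neu1 and Glb1 reach past the dotted lines at a 2-fold change.

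The size of change that these libraries leave possible was bounded approximately for most members. The 95% interval of the log2 change lay between -1 and 1, that is within a 2-fold change either way, for 37 of the 41 tested members, and for 67.8% of all genes tested. Members were better counted than most genes, with a median mean count of 44.1 against 22.5 over all genes tested. The exceptions were Atp6v1a, Scarb2, Neu1 and Glb1. These intervals can be narrower than the test allows, so the 37 may be too many. Outside the members, Tmem199 had an interval from -1.68 to -0.0037 with an unadjusted p of 0.052 in edgeR's quasi-likelihood test. Standard errors of the log2 change ran from 0.19 for Ctsb to 0.39 for Neu1. The middle 50% of members had log2 changes from -0.15 to 0.03, and those of all genes tested ran from -0.19 to 0.22.

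**Figure D2:**
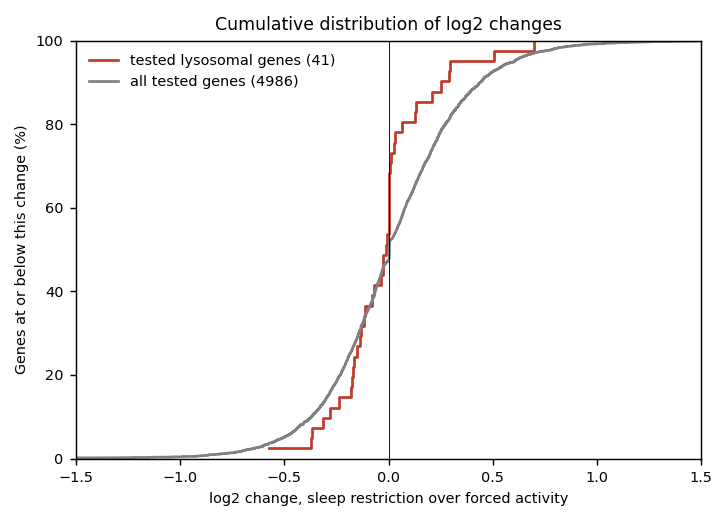
The lines give the percentage of genes at or below each log2 change, sleep restriction over forced activity, for the 41 tested lysosomal genes and all 4986 tested genes. The lysosomal line climbs over a narrower span, from -0.57 to 0.70, and steps up just above 0, where 7 members had equal summed counts in both groups.

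Differences between replicate libraries are given beside the difference between the group means. Each mean averages 2 libraries, so the difference between means would tend to be smaller without any group effect, and their order decides nothing. The median absolute difference in log2 CPM was 0.27 between the sleep restriction libraries and 0.22 between the forced activity libraries, while that between the group means was 0.12. Over all genes tested these medians were 0.29, 0.25 and 0.19. In 14 members both sleep restriction libraries lay on one side of both forced activity libraries, 6 above and 8 below. Among all genes tested 17.2% lay above and 15.3% below in this way, or 32.5% in either direction, so the members' share was close to the background.

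The proteases, which cut proteins at acid pH, had log2 changes from -0.24 to 0.29 over 10 tested genes. Cathepsin L (Ctsl, ENSRNOG00000018566.6, chromosome 17 from 1872848 to 1879279 in rn6), a cysteine endopeptidase, measured 776.9 and 608 CPM in sleep restriction 1 and 2 and 637 and 723 CPM in forced activity 1 and 2. The groups overlapped, and the log2 change was 0.03 with an interval from -0.43 to 0.49. Cathepsin B (Ctsb, ENSRNOG00000010331.5, chromosome 15 from 46316741 to 46337612), which is both an endopeptidase and a carboxydipeptidase, measured 428 and 431 CPM under sleep restriction and 458 and 444 CPM under forced activity. Both sleep restriction libraries were lower, yet the log2 change was only -0.07 (SE 0.19, adjusted p 0.999 in edgeR), with an interval from -0.50 to 0.36.

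Cathepsin H (Ctsh), an aminopeptidase, measured 267 and 167 CPM in sleep restriction 1 and 2 and 260 and 252 CPM in forced activity 1 and 2. Sleep restriction 2 alone was low, and the log2 change of -0.24 was 0.05 without that library. Cathepsin D (Ctsd), an aspartic protease, had the same shape, at 208 and 124 CPM under sleep restriction and 194 and 181 CPM under forced activity. Cathepsin Z (Ctsz), a carboxypeptidase, measured 45.8 and 44.8 CPM under sleep restriction and 41.5 and 31.0 CPM under forced activity, which did not overlap, with a log2 change of 0.29 (SE 0.29, adjusted p 0.999 in edgeR) that was 0.07 without forced activity 2.

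Tripeptidyl peptidase 1 (Tpp1), which removes tripeptides from protein ends, measured 89.6 and 89.5 CPM under sleep restriction and 84.1 and 95.03 CPM under forced activity. Its sleep restriction values lay between those of forced activity. Ctsc, which activates granule serine proteases, had 391 and 472 CPM under sleep restriction and 483 and 386 CPM under forced activity, and Ctsa, the protective protein of Glb1 and Neu1, had a log2 change of 0.06. The asparaginyl endopeptidase Lgmn, with 63.1 and 38.7 CPM under sleep restriction and 50.4 and 51.4 CPM under forced activity, had a log2 change of 0.00.

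Cathepsin S (Ctss), a protease of antigen-presenting cells, measured 38.7 and 32.6 CPM in sleep restriction 1 and 2 and 29.0 and 41.9 CPM in forced activity 1 and 2. It was higher in sleep restriction 1 and forced activity 2 than in the replicate of each. The 13 Kupffer cell and macrophage markers, of which 11 were tested, 0 were called and Timd4 was at 0 in every library, had the same order, with summed levels of 1132 and 794 CPM under sleep restriction and 719 and 951 CPM under forced activity. Their part in the Ctss values was not tested.

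**Figure D3:**
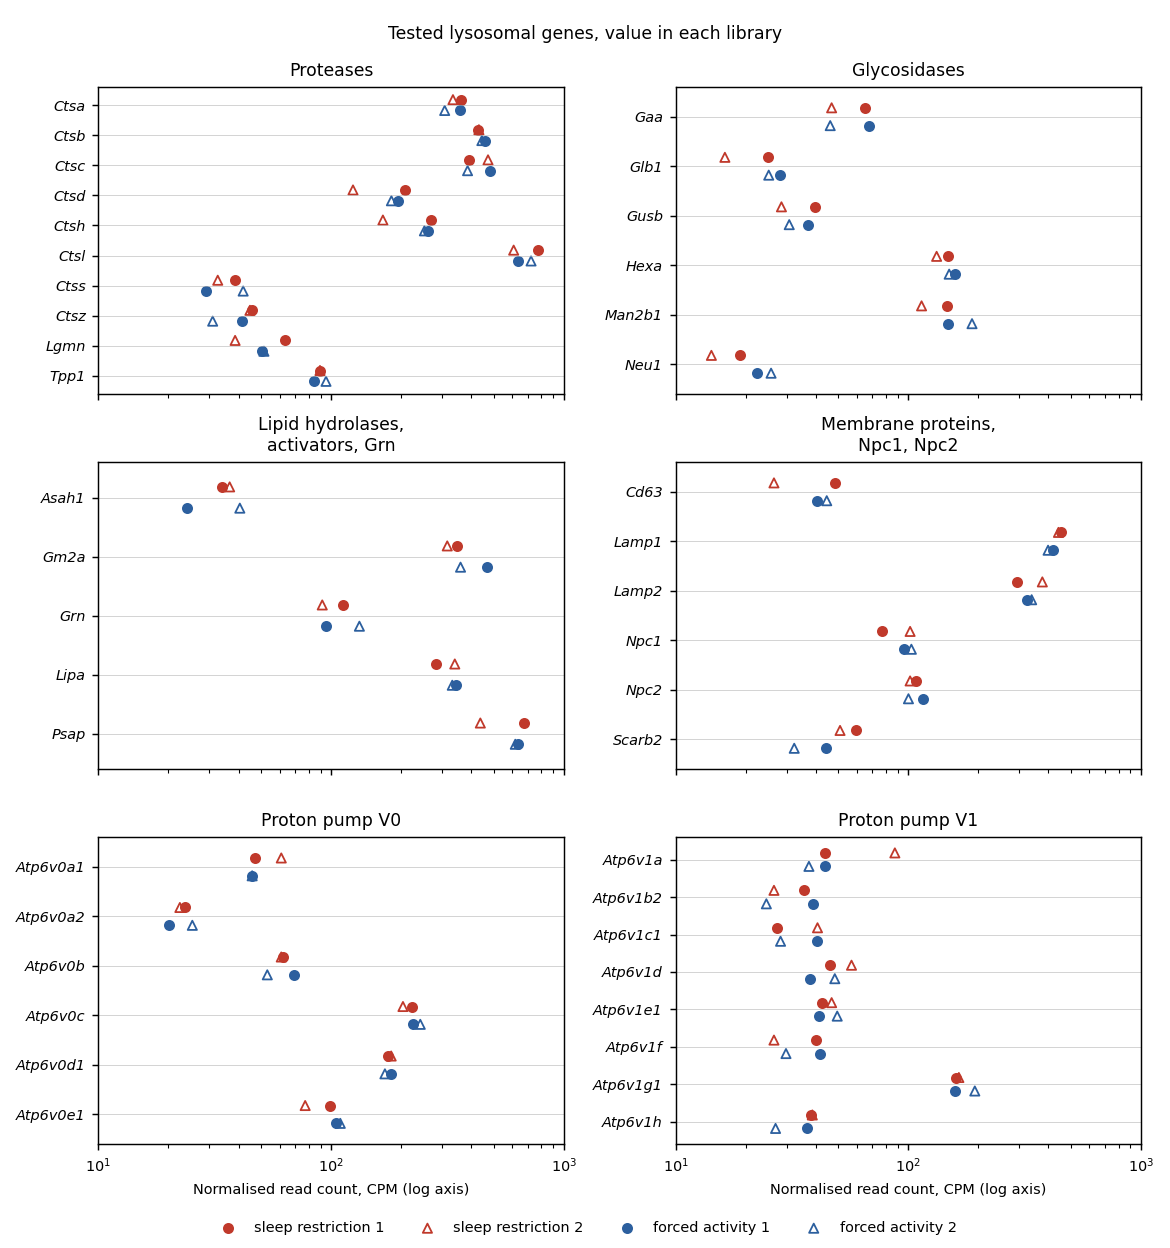
Each row is a tested lysosomal gene and each point its normalised read count (CPM, log axis) in 1 library, with sleep restriction drawn above forced activity and circles and triangles for replicates 1 and 2. The groups interleave in most rows, and the open triangle of sleep restriction 2 sits apart for Atp6v1a on the high side and for Ctsd, Ctsh and Psap on the low side.

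The glycosidases, which remove sugars from glycoproteins, glycolipids and glycogen, had the lowest median log2 change of the roles, -0.25 over 6 tested genes, with 5 negative. Neu1, the lysosomal sialidase, measured 18.9 and 14.2 CPM under sleep restriction and 22.5 and 25.7 CPM under forced activity. Its log2 change was -0.57 (SE 0.39, adjusted p 0.999 in edgeR) on counts of 9.3 and 7 under sleep restriction and 10.6 and 13.2 under forced activity, and the interval from -1.43 to 0.28 leaves both a fall of over 2-fold and no change possible. Man2b1, the alpha-mannosidase, measured 147 and 114 CPM under sleep restriction and 148 and 188 CPM under forced activity, with a log2 change of -0.37 (SE 0.23) that was -0.02 between the replicate 1 libraries and -0.69 between the replicate 2 libraries.

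Hexa, the alpha subunit of beta-hexosaminidase, measured 147 and 132 CPM under sleep restriction and 158 and 150 CPM under forced activity, with a log2 change of -0.14 (SE 0.21). Glb1, the beta-galactosidase, had 25.03 and 16.3 CPM under sleep restriction and 28.0 and 25.1 CPM under forced activity. In these 4 genes, Neu1, Man2b1, Hexa and Glb1, both sleep restriction libraries were lower, as in 15.3% of all genes tested, and none passed the test. Gusb, the beta-glucuronidase, and Gaa, the acid alpha-glucosidase that breaks down glycogen, overlapped and had log2 changes of 0.00 and -0.03. Gla, the alpha-galactosidase, lay under the filter, with 4.7 and 1 counts under sleep restriction and 4.1 and 0.4 under forced activity.

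The summed level of the 7 glycosidases was 453 and 354 CPM in sleep restriction 1 and 2 and 470 and 466 CPM in forced activity 1 and 2. Sleep restriction 2 alone stood low, and it had the lowest value in 5 of the 6 tested glycosidases. It was the lowest library in 16 of the 41 tested members (39.0%) and in 31.1% of all genes tested. By kind, these were 13 of the 27 members other than pump subunits and 3 of the 14 pump subunits. Sleep restriction 2 was also the highest library in 7 of the 41 tested members and in 1606 of the 4986 genes tested.

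Among the lipid hydrolases and their activators, log2 changes ran from -0.32 to 0.13 over 5 tested genes. Gm2a, the activator protein that lifts GM2 ganglioside out of the membrane for Hexa, measured 348 and 315 CPM under sleep restriction and 465 and 360 CPM under forced activity. The groups did not overlap, and the log2 change was -0.32 (SE 0.21, adjusted p 0.999 in edgeR), with -0.42 between the replicate 1 libraries and -0.19 between the replicate 2 libraries. It was -0.12 without forced activity 1. Psap, the precursor of the saposins that activate sphingolipid hydrolases, measured 671 and 437 CPM under sleep restriction and 635 and 618 CPM under forced activity. Its log2 change was -0.18, and 0.09 without sleep restriction 2.

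Lipa, the acid lipase that frees cholesterol and fatty acids from lipoproteins, measured 283 and 340 CPM under sleep restriction and 345 and 331 CPM under forced activity. Its log2 change was -0.12, with an interval from -0.57 to 0.33. Grn, progranulin, had 112 and 91.6 CPM under sleep restriction and 95.4 and 132 CPM under forced activity, and Asah1, the acid ceramidase, had 34.0 and 36.6 CPM under sleep restriction and 23.9 and 40.5 CPM under forced activity. Both overlapped between the groups. Ppt1, which removes palmitate from proteins, lay under the filter with 9.1 and 8 counts under sleep restriction and 9.4 and 5.5 under forced activity.

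The membrane proteins had a median log2 change of -0.01 over 6 tested genes. Lamp1 and Lamp2 are the heavily glycosylated proteins that line the lysosomal membrane. Lamp1 (ENSRNOG00000019629.6, chromosome 16 from 81689590 to 81706561) measured 451 and 442 CPM under sleep restriction and 419 and 398 CPM under forced activity, all sleep restriction values being higher, with a log2 change of 0.13 (SE 0.20, adjusted p 0.999 in edgeR). Lamp2 measured 292 and 376 CPM under sleep restriction and 324 and 339 CPM under forced activity, and its log2 change of 0.01 changed sign under another scaling.

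Scarb2, also called LIMP-2, is the receptor that carries beta-glucocerebrosidase to the lysosome. The gene (ENSRNOG00000002225.6, chromosome 14 from 17064353 to 17115963) measured 59.8 and 50.9 CPM under sleep restriction and 44.1 and 32.3 CPM under forced activity, or 55.4 ± 6.34 and 38.2 ± 8.31 CPM (SD, 2 libraries each). Both sleep restriction libraries were higher, and the log2 change was 0.51 (SE 0.28, adjusted p 0.999 in edgeR), with 0.38 between the replicate 1 libraries and 0.56 between the replicate 2 libraries. Leaving out 1 library gave 0.30 to 0.73.

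Npc1 and Npc2 together move cholesterol out of the lysosome, Npc2 in the lumen and Npc1 in the membrane. Npc1 measured 76.7 and 102 CPM under sleep restriction and 95.6 and 103 CPM under forced activity, and Npc2 measured 108 and 102 CPM under sleep restriction and 115 and 100 CPM under forced activity. Their log2 changes were -0.15 and -0.03, with intervals from -0.67 to 0.37 and from -0.51 to 0.46. Cd63, a tetraspanin of late endosomes and lysosomes, measured 48.4 and 26.5 CPM under sleep restriction and 40.5 and 44.6 CPM under forced activity, with sleep restriction 2 low again.

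The proton pump subunits fell into those counted in every library and those at or near 0. Of the 22 pump genes 14 were tested, 1 more lay just under the filter, and 7 had at most 1 count in every library. The tested V0 genes were Atp6v0a1 and Atp6v0a2, isoforms of the large a subunit that forms the proton path, Atp6v0b and Atp6v0c of the proteolipid ring, Atp6v0d1 of the stalk, and Atp6v0e1. The tested V1 genes were Atp6v1a and Atp6v1b2 of the catalytic head, and Atp6v1c1, Atp6v1d, Atp6v1e1, Atp6v1f, Atp6v1g1 and Atp6v1h of the stalks and regulatory parts. Every subunit type of the V1 sector therefore had 1 tested isoform.

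The genes at or near 0 were the isoforms that are best known from kidney, bone, testis, brain and other specialised cells. Atp6v1b1, Atp6v1e2, Atp6v1g2 and Atp6v1g3 were listed at 0 in all 4 libraries. Atp6v0a4 and Atp6v0d2 each had 0.1 and 0 counts under sleep restriction and 0.1 and 0 under forced activity, and Atp6v1c2 had 0 and 1 under sleep restriction and 0.1 and 0.6 under forced activity. A single count of 0 allows up to 3 counts, or 5.84 to 6.36 CPM in these libraries, for counting error only. Where the values are averages this bound may be too wide. A row at 0 can also come from how reads were assigned, since Rpl8 was at 0 in every library, as were repeated rows of Rpl38 and Rpl7a. These were among 29 rows at 0, of 126 whose symbol starts with Rpl or Rps and a number. The 126 also take in kinase genes such as Rps6ka1. Atp6v0e2 lay just under the filter, with 8.7 and 8 counts under sleep restriction and 7.5 and 9.7 under forced activity. Another large-subunit isoform, Tcirg1, which is outside the rule, had 18.7 and 17 counts under sleep restriction and 20 and 25.2 under forced activity.

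**Figure D4:**
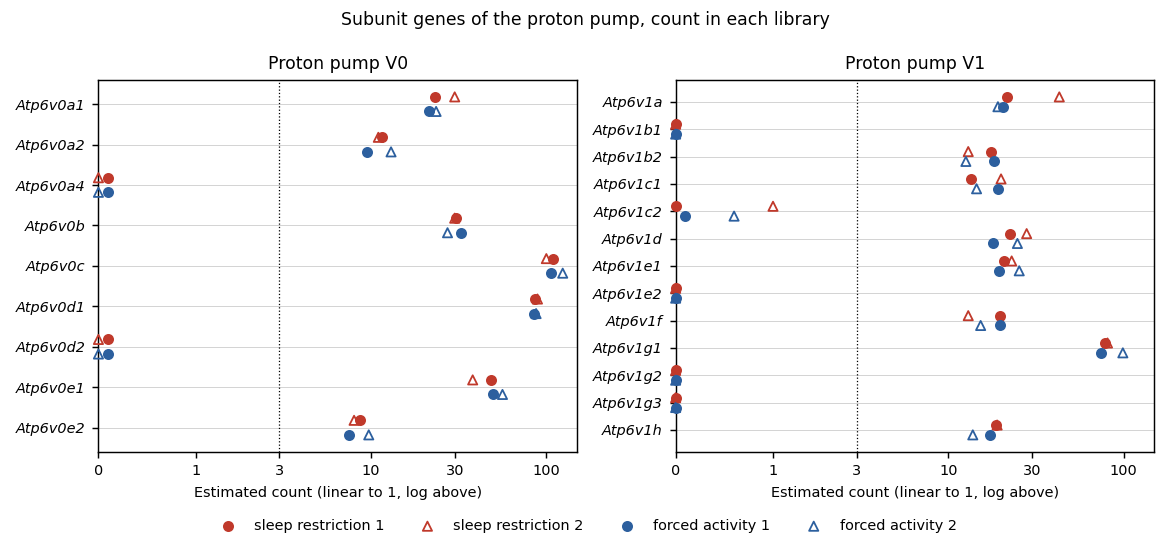
Points give the estimated count of each pump subunit gene in each library, on an axis that is linear up to 1 and logarithmic above, with sleep restriction drawn above forced activity. The dotted line marks the 3 counts that a single count of 0 allows, and 7 genes lie left of it in all libraries while 15 lie right of it.

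In the V0 sector log2 changes ran from -0.28 to 0.21. Atp6v0c measured 223 and 203 CPM under sleep restriction and 225 and 241 CPM under forced activity, with a log2 change of -0.13 (SE 0.20, adjusted p 0.999 in edgeR). Atp6v0d1 (ENSRNOG00000017235.5, chromosome 19 from 37481787 to 37525762), whose promoter is shown above, measured 175 and 181 CPM under sleep restriction and 181 and 170 CPM under forced activity. Its log2 change was 0.03, with an interval from -0.43 to 0.48.

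Atp6v0e1, a small membrane subunit, measured 98.7 and 77.3 CPM under sleep restriction and 105 and 109 CPM under forced activity, with a log2 change of -0.28 (SE 0.23) that was -0.13 without sleep restriction 2. Both sleep restriction libraries were lower. Atp6v0a1 measured 47.0 and 61.0 CPM under sleep restriction and 45.6 and 45.8 CPM under forced activity, with a log2 change of 0.21 that was 0.00 without sleep restriction 2. The paralog Atp6v0a2 measured 23.6 and 22.4 CPM under sleep restriction and 20.1 and 25.3 CPM under forced activity, with a log2 change of 0.00.

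The summed level of the 9 V0 genes was 647 and 623 CPM under sleep restriction and 662 and 664 CPM under forced activity. That of the 13 V1 genes was 434 and 490 CPM under sleep restriction and 439 and 439 CPM under forced activity. Sleep restriction 2 was thus the lowest of the 4 for V0 and the highest for V1. Much of its V1 excess was 1 gene, Atp6v1a, at 87.5 CPM there against 37.4 to 43.8 CPM in the other libraries.

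In the V1 sector log2 changes ran from -0.11 to 0.70. Atp6v1a (ENSRNOG00000001992.5, chromosome 11 from 61531578 to 61584634), the subunit that binds and splits ATP, had the largest change of any tested member. It measured 43.8 and 87.5 CPM in sleep restriction 1 and 2 and 43.7 and 37.4 CPM in forced activity 1 and 2, so that sleep restriction 2 was high and the other libraries were close together. The log2 change was 0.70 (SE 0.35, adjusted p 0.999 in edgeR), with an interval from -0.06 to 1.46. It was 0.01 between the replicate 1 libraries and 1.16 between the replicate 2 libraries, and 0.13 without sleep restriction 2. Its partner in the catalytic head, Atp6v1b2, had 35.6 and 26.5 CPM under sleep restriction and 38.8 and 24.5 CPM under forced activity, with a log2 change of 0.00.

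Atp6v1h, a regulatory subunit that links V1 to V0, measured 38.3 and 38.7 CPM under sleep restriction and 36.7 and 26.9 CPM under forced activity, with a log2 change of 0.30 (SE 0.29) that was 0.10 without forced activity 2. Atp6v1g1, of the peripheral stalk, measured 160 and 165 CPM under sleep restriction and 158 and 193 CPM under forced activity, with a log2 change of -0.11. The remaining tested V1 genes, Atp6v1c1, Atp6v1d, Atp6v1e1 and Atp6v1f, overlapped between the groups. Atp6v1c1 had 27.3 and 40.7 CPM under sleep restriction and 40.7 and 28.2 CPM under forced activity, and so moved by -0.54 between the replicate 1 libraries and 0.51 between the replicate 2 libraries.

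The replicate 1 libraries held more genes above 0 than the replicate 2 libraries, so differences in log2 CPM were also taken within each number. Values of sleep restriction 2 were nearly all whole, unlike the others, so its number of genes above 0 may not be comparable. The members' median difference in log2 CPM was 0.01 between sleep restriction 1 and forced activity 1 and -0.09 between sleep restriction 2 and forced activity 2. Over all genes tested both medians were 0.01. In 18 of the 41 members the difference had the same sign in both, 8 positive and 10 negative, or 43.9%, against 56.3% of all genes tested.

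**Figure D5:**
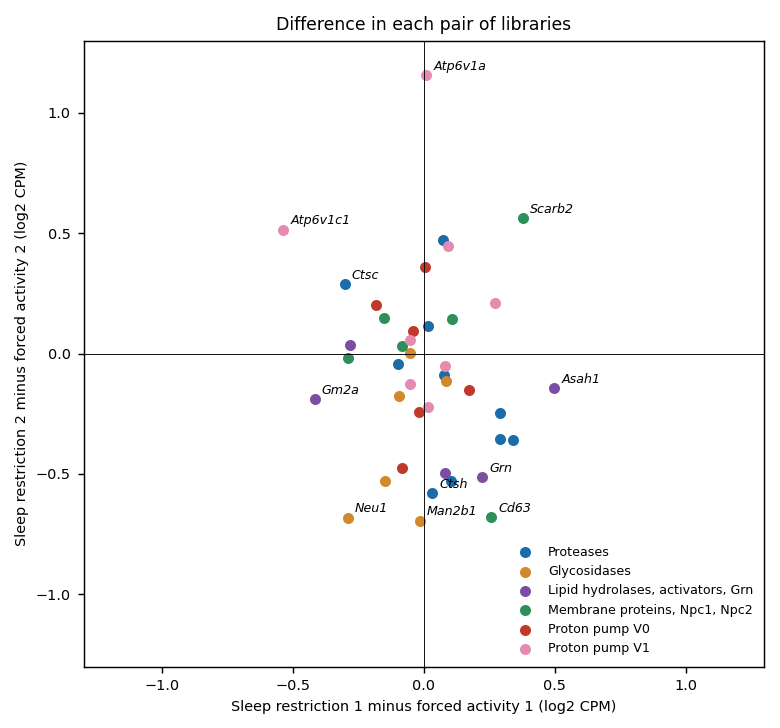
Each point is a tested lysosomal gene, placed by its log2 CPM difference between the replicate 1 libraries (horizontal) and between the replicate 2 libraries (vertical), sleep restriction minus forced activity in both, and coloured by role. The cloud is centred near 0 with 18 of 41 points in the quadrants of equal sign, and Atp6v1a stands at the top near 0 on the horizontal axis.

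The 4 genes whose promoters hold TCACGTGA had a median log2 change of -0.07, from -0.28 for Atp6v0e1 to 0.13 for Lamp1, and the 30 tested members whose promoter lacks it had a median of -0.02. For TCACGTG the medians were -0.10 over 6 genes with it and -0.01 over 28 without, and for CACGTG -0.17 over 7 with it and -0.01 over 27 without. These are descriptions and were not tested.

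Other genes of lysosomal biology, listed by role, also gave 0 calls. Of 135 listed genes in 7 lists 84 were tested, with 0 called higher, 0 called lower and a median log2 change of -0.04. Both sleep restriction libraries were above both forced activity libraries in 10 of them (11.9%) and below in 18 (21.4%), against 17.2% above and 15.3% below over all genes tested, or 33.3% against 32.5% in either direction. Without adjustment 2 of the 84 were under 0.05, against the 4.21% given above.

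Those 2 were Lamtor4, a subunit of the Ragulator complex that anchors mTORC1 to the lysosome, and Tmem106b, a lysosomal membrane protein. Lamtor4 measured 46.4 and 40.7 CPM under sleep restriction and 69.3 and 76.5 CPM under forced activity, and its log2 change was -0.74 (SE 0.26, adjusted p 0.999 in edgeR). Tmem106b measured 71.0 and 71.2 CPM under sleep restriction and 45.8 and 41.7 CPM under forced activity, and its log2 change was 0.70 (SE 0.26, adjusted p 0.999 in edgeR). In both genes, picked here by their p, the groups did not overlap, as in 32.5% of all genes tested.

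Among 18 listed genes of TFEB-related factors and nutrient sensing at the lysosome 10 were tested, with a median log2 change of -0.20 and 8 negative. The list's median difference in log2 CPM was 0.01 between the replicate 1 libraries and -0.34 between the replicate 2 libraries, and sleep restriction 2 was the lowest library in 7 of the 10. Tfeb itself lay under the filter, with 4.4 and 9 counts under sleep restriction and 5.2 and 4.1 under forced activity. Among 37 other lysosomal hydrolases 23 were tested, with a median of -0.03. The smallest p was that of Aga, which splits the sugar from asparagine, at 32.2 and 24.4 CPM under sleep restriction and 39.4 and 48.1 CPM under forced activity and a log2 change of -0.64.

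The 25 other membrane proteins and channels had 13 tested and a median of -0.10. Pump accessory and assembly genes had 6 of 10 tested and a median of -0.17, with Rogdi, of the complex that reassembles the pump, at 56.4 and 46.8 CPM under sleep restriction and 58.1 and 91.1 CPM under forced activity. Mannose 6-phosphate tagging and sorting genes had 7 of 13 tested and a median of -0.06, with Sumf1, which activates sulfatases, at -0.22. The autophagy list had 23 of 28 tested, a median of 0.11 and 16 positive, with Rb1cc1, a scaffold of the initiating kinase complex, at 0.45. Cystatins, which inhibit the cysteine cathepsins, had 2 of 4 tested, and Cstb was at -0.32.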

How the data were processed

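Liver messenger RNA was measured in 4 libraries. The deposited table gives, for each Ensembl gene, an estimated count per library, a symbol and an interval. The submitters' processing notes name CASAVA, STAR 2.4.1d and rn6 without their roles. The program that counted reads was not given in the sources used here. Values are multiples of 0.1 with nearly equal column totals, and the table's own name marks averaging and sense-strand counts, so the libraries appear drawn down to a common depth. In sleep restriction 2, 10951 of 10952 values above 0 were whole (within 1e-06), against 7.87% in sleep restriction 1, 8.01% in forced activity 1 and 9.12% in forced activity 2. Averaging would lower counting noise unequally, which the count model does not include. Intervals of Ctsa, Npc1, Asah1, Gusb and Atp6v1g2 overlap other counted genes.

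Rounded counts went into edgeR 4.0.16 (R 4.3.3) with TMM, filterByExpr with a minimum count of 10, robust quasi-likelihood, Benjamini-Hochberg over 4986 genes, and the fit was tested on simulated data. The SE comes from the fitted weights, and 95% intervals use the fit's degrees of freedom. The intervals are built apart from the test's p-values and can be narrower than these allow. Differences of log2 CPM use a prior count of 2. CPM are unrounded values per 1e6 of the effective total, the summed counts of the tested genes times the TMM factor. DESeq2 1.42.0, limma 3.58.1, other scalings and filters, a replicate block and each library left out were alternatives. Members and lists were chosen with earlier results of these data known. Named members are the 2 with the smallest p and the 2 with the highest mean count in each role. Others were described after their values were seen.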

Additional observations from a re-analysis of the deposited data

How the results depend on the processing

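The count of lysosomal members called was 0 under each of the 12 alternatives, and no named member passed the threshold in any of them (adjusted p from 0.653 to 0.99996). The members' median log2 change ran from -0.0965 to 0.00814 with 1 library left out. The number of members whose groups did not overlap was 25 to 30 then, as fewer values have to separate. Under the other scalings and filters it was 11 to 13, against 14 in the main fit. The share over all genes was not computed for these alternatives. Over all genes, 5 were called without a gene filter, 5 with a replicate block, 2 with DESeq2, 0 with limma-voom, 0 without robust estimation, and 0 to 0 with 1 library left out. The replicate numbers are not said to pair animals (correlation of deviations 0.207 over genes), and the block called 0 members. Among named members, Lamp2 had log2 changes of -0.000514 with DESeq2 size factors, -0.0112 with upper-quartile scaling, -0.0161 without a filter, -0.0197 with a filter of 5 CPM in 2 libraries, -0.000464 with DESeq2 and -0.00204 with limma-voom, and Ctsl and Atp6v0d1 had -0.00354 and -0.00361 with that CPM filter. With 1 library left out, ranges that changed sign were -0.17 to 0.19 for Ctsl, -0.53 to 0.0907 for Psap, -0.62 to 0.0518 for Ctsh, -0.20 to 0.18 for Lamp2, -0.00349 to 0.38 for Atp6v0a1, -0.0226 to 0.0729 for Atp6v0d1 and -0.24 to 0.0286 for Atp6v1g1. The cause was not tested. These fits take the remaining library of a group to vary as the other group does. Depth limits the low members: Neu1, with the lowest mean count of the tested members, had the widest interval, from -1.43 to 0.28.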

Other observations

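The order of libraries within each group was also counted. In 11 of 41 tested members (26.8%) sleep restriction 1 was above sleep restriction 2 and forced activity 2 was above forced activity 1. The summed level of the Kupffer cell and macrophage markers had this order, as did 19.7% of all genes tested. For this and the marker lists below only sums were ordered, and single markers may differ. The opposite order in both groups was that of 7 members (17.1%) and 20.6% of all genes tested. Of the 11 with the first order, 8 were members other than pump subunits, which made up 27 of the 41 tested. These 8 were Cd63, Ctsl, Ctss, Grn, Lgmn, Man2b1, Neu1 and Tpp1. Ctsb, Ctsc and Lipa, also outside the pump, had the opposite order. Sinusoidal endothelial markers, of which 11 of 12 were listed and 9 tested, also had the first order, with summed levels of 680 and 370 CPM in sleep restriction 1 and 2 and 258 and 733 CPM in forced activity 1 and 2. The 5 red cell markers had it too, at 1171 and 680 CPM in sleep restriction 1 and 2 and 866 and 1778 CPM in forced activity 1 and 2. Stellate cell markers also had it, at 1163 and 914 CPM under sleep restriction and 972 and 1078 CPM under forced activity. The part of these markers in the members' values was not tested. Markers of cholangiocytes, B and plasma cells, T cells and neutrophils had 0 genes tested. In any library they summed to at most 37.1 CPM for cholangiocytes, 6.10 CPM for B and plasma cells, 4.87 CPM for T cells and 3.18 CPM for neutrophils, of whose 4 markers Mpo and Ngp were at 0 in every library.

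In 7 of the 41 tested members the rounded counts of the 2 sleep restriction libraries summed to exactly the same number as those of the 2 forced activity libraries, against 4.75% of all genes tested. They were Atp6v0a2, Atp6v0b, Atp6v1b2, Atp6v1c1, Atp6v1e1, Gusb and Lgmn, and 5 of them are pump subunits. Each had a log2 change of 0.00, although single libraries differed, as Lgmn and Atp6v1c1 show.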
